A study of Mus musculus with 10 samples.

Results

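Lymphatic vessels are lined by endothelial cells that collect tissue fluid and immune cells, and they are recognised by a small set of genes that are used together. Among them are the transcription factor gene Prox1, which sets lymphatic identity, the chemokine gene Ccl21a, which draws dendritic cells and T cells, and the genes of the hyaluronan receptor LYVE1, the mucin-like membrane protein podoplanin (Pdpn) and the secreted proteins multimerin 1 (Mmrn1) and reelin (Reln). Each of these genes is also known outside lymphatic vessels. Lyve1 is known from sinusoidal endothelium of the liver and from macrophages, Pdpn from reticular fibroblasts and osteocytes, Mmrn1 from megakaryocytes and blood vessels, and Reln from neurons. Sinusoids, the wide capillaries of the marrow, make up much of the vasculature of long bones.

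The 6 genes were measured in single-cell RNA sequencing data of bone endothelial cells, among 26504 gene symbols listed in the tables. All mice were C57BL/6 and carried the Cdh5-mTnG reporter, in which the promoter of the endothelial cadherin gene Cdh5 drives membrane-bound tomato and nuclear GFP, and cells positive for both colours were sorted from lineage-depleted digests of femur and tibia. Untreated juvenile mice were 3 weeks old and of both sexes, untreated adult mice were 12 weeks old, untreated aged mice were 75 weeks old, and 12-week-old mice had received parathyroid hormone (PTH), which builds bone when given intermittently, or alendronate, a bisphosphonate that slows resorption. Mice of the last 4 groups were female, so that age and sex cannot be told apart between juvenile and adult bone. Each of the 5 groups had 2 libraries made from pooled animals in 1 experiment, and differences between the 2 libraries of a group are therefore not differences between mice. Every library was made with a 10x 3′ kit, whose version is not labelled per library, so that kit and group cannot be told apart.

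Cells were kept with 500 to 6000 detected genes, under 25% mitochondrial UMIs (unique molecular identifiers, the counted transcripts) and at least 2 UMIs summed over Cdh5, Pecam1, Egfl7 and Kdr, which left 45070 of 47466 cells. Library totals ran from 10653583 to 28419323 UMIs, cells per library from 2163 to 7496 and median UMIs per cell from 3116 to 5087.5. The sorted cells carried the endothelial markers, with 10 endothelial genes together making up 8252 to 10251 CPM of each library (UMIs scaled to a common library total), and Cldn5 and Tie1, which took no part in the choice of cells, stood at 1772 and 405 CPM over all cells. Libraries shared 1 to 74 cell barcodes over 45 pairs. The aged libraries stood apart, with 1 to 4 barcodes shared in pairs with an aged library against 8 to 74 in the others, and symbols starting with U had UMIs in the aged libraries (1.52 to 1.53% of their UMIs) and in none of the other 8. Going by the symbols, the aged libraries may have been counted with another gene table, and the reason for their few shared barcodes was not tested. Neither difference can be told apart from age in the comparisons of aged bone. Each cell was assigned to a vessel gate by 2 or more UMIs of Stab2 (sinusoidal, 20566 cells), Gja4 (arterial, 5452 cells) or Vwf and Fmo2 together (2145 cells), while 15475 cells met no gate and 1432 cells met more than 1. Cells of no gate were the shallowest, with a median of 2615 UMIs against 3393 to 5786.5 in the other classes. Some may have missed a gate for lack of depth. A further 489 haematopoietic cells in the same libraries, with hardly any endothelial UMI, served for comparison (median of 3446 UMIs, against 3574 in the endothelial cells).

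Because Ccl21a has near-identical copies in the genome, its identity was examined first. In the GRCm38 annotation (GENCODE M21) Ccl21a lies at chr4:42772860-42773993 on the minus strand, and 4 near-identical copies lie on the plus strand of the same chromosome, namely Gm21541 at chr4:41903610-41904743, Gm13304 at chr4:42114817-42115917, Ccl21b at chr4:42255767-42256432 and Gm10591 at chr4:42612195-42612860. The coding sequence of 402 bases differed between Ccl21a and each copy at 2 bases, an identity of 99.5%. Counting from 1 at the A of the start codon, the substitutions were T84A and C194T, written with the base of Ccl21a first. The windows around both positions, taken from the annotation's transcripts, are shown because they hold every coding difference between the copies, with the differing base in capitals.
Ccl21a, coding bases 44 to 124: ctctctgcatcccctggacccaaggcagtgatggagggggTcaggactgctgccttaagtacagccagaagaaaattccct
Ccl21b, coding bases 44 to 124: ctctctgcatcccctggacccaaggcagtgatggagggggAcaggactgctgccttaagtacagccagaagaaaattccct
Ccl21a, coding bases 154 to 234: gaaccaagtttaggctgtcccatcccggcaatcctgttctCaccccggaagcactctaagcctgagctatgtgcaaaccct
Ccl21b, coding bases 154 to 234: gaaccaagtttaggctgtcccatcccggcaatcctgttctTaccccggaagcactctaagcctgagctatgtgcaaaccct
Gm10591, Gm13304 and Gm21541 had the same letters as Ccl21b in both windows. The last 300 transcript bases, from which 3′ reads mostly come, differed at 3 bases between Ccl21a and Gm13304 or Gm21541. None of the copies had a row in the tables, and the counts of Ccl21a are therefore those of reads assigned to that symbol and are uncertain as to the copy, and reads that matched several copies may have been lost.

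The other 5 genes are single genes on other loci. Lyve1 spans chr7:110850607-110863239, Prox1 chr1:190118035-190170714, Pdpn chr4:143267431-143299564 and Reln chr5:21884454-22344702, all on the minus strand, and Mmrn1 spans chr6:60924976-60989378 on the plus strand. Exons of Prox1 overlap the antisense gene Prox1os and those of Reln overlap Gm10475, and since the strand setting of the counting is not stated, reads of these pairs cannot be told apart.

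Mmrn1 was by far the most widespread of the 6 genes, and the other 5 were rare. Over the 10 libraries 9615 cells (21.3%) held 14967 UMIs of Mmrn1. Prox1 was found in 397 cells (0.881%), Ccl21a in 267 (0.592%), Pdpn in 111 (0.246%), Lyve1 in 98 (0.217%) and Reln in 66 (0.146%). In UMIs the order was different, since Ccl21a with 4639 UMIs came second, ahead of Lyve1 with 517, Prox1 with 502, Pdpn with 253 and Reln with 172. Counts from 3′ reads do not scale with transcript length, but the order carries the uncertainty of the Ccl21a copies and of the genes that overlap Prox1 and Reln.

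The 6 genes were spread over their holders in contrasting ways. Of all Ccl21a UMIs, 93.4% lay in 28 cells with 10 or more UMIs each and a maximum of 467, whereas 221 cells held a single UMI. Lyve1 was also concentrated, with 63.1% of its UMIs in 18 cells with 10 or more. Prox1 was the opposite, with 1 UMI in 85.4% of its holders and no more than 6 in any cell, as transcription factor genes often are. Mmrn1 had 1 UMI in 69.1% of its holders and 10 or more in 43 cells.

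Single UMIs can come from free RNA, so the share of cells with a UMI was set beside that in the haematopoietic cells, which may also express a gene themselves. After each cell was thinned to 1000 UMIs and shallower cells were left out (43312 endothelial and 482 haematopoietic cells remained), Mmrn1 was found in 12.6% of Stab2 cells (95% Clopper-Pearson interval, 12.1 to 13.0%) against 1.87% of haematopoietic cells (0.857 to 3.51%). Gja4 cells at 0.894% and Vwf/Fmo2 cells at 0.719% did not exceed the haematopoietic share, and the interval of cells of no gate (3.42%, 3.13 to 3.74%) overlapped that of the haematopoietic cells. A list of 6 megakaryocyte and platelet genes summed to 2687 CPM in the haematopoietic cells and 154 CPM in the endothelial cells, and its part in the haematopoietic Mmrn1 share was not tested. For Reln the order was turned, with 2.28% of haematopoietic cells (1.14 to 4.05%) against 0.0577% of endothelial cells (0.0374 to 0.0852%). Ccl21a, Prox1 and Pdpn were found in 0 of 482 thinned haematopoietic cells, which allows a share of up to 0.622%. This limit is 3 in 482, a 1-sided bound and not the upper end of a Clopper-Pearson interval. The endothelial shares of these genes, 0.201%, 0.268% and 0.0947%, lay below it. Lyve1 was found in 1 haematopoietic cell (0.207%) and in 0.104% of endothelial cells. Intervals and limits cover counting error only.

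**Figure D1:**
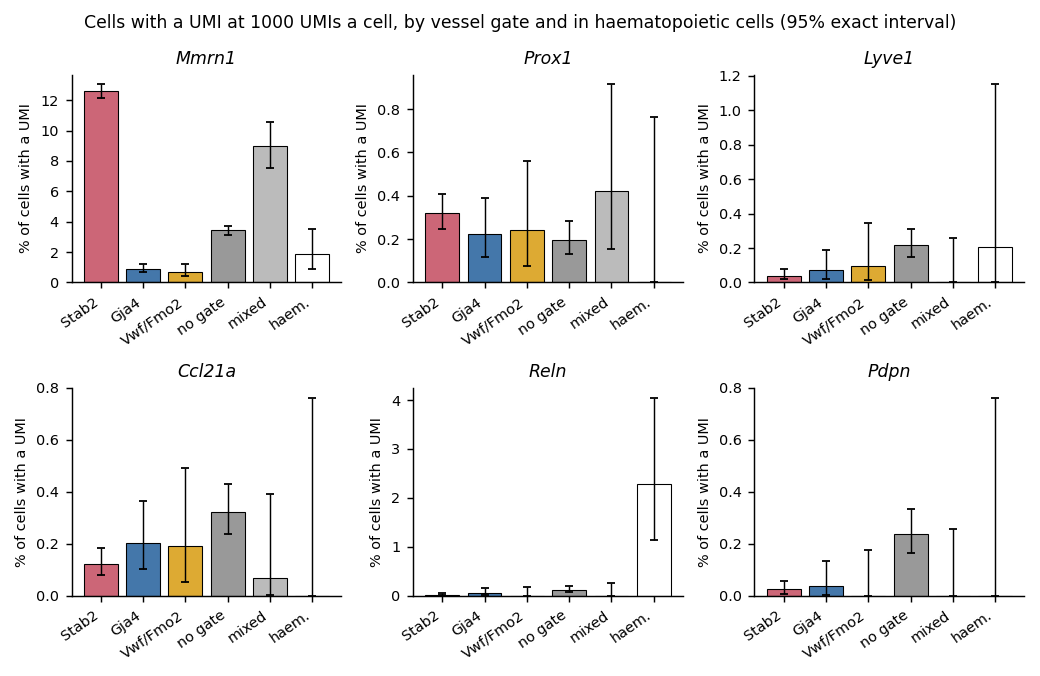
Share of cells with a UMI of each member, in percent on axes that start at 0, by vessel gate after thinning to 1000 UMIs per cell, beside haematopoietic cells (haem.) of the same libraries; error bars are 95% Clopper-Pearson intervals. Mmrn1 stands at 12.6% in Stab2 cells against 1.87% in haematopoietic cells, and Reln is higher in haematopoietic cells (2.28%) than in any gate.

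The UMIs of the members were spread unevenly over the vessel gates. Stab2 cells, 45.6% of all cells, held 78.6% of the Mmrn1 UMIs and 54.0% of the Prox1 UMIs. Cells of no gate, 34.3% of all cells, held 85.4% of the Pdpn UMIs, 74.4% of Reln, 67.9% of Lyve1 and 62.4% of Ccl21a. The cells that held a Ccl21a UMI, in contrast, lay close to the shares of all cells, with 41.2% in Stab2 cells and 36.7% in cells of no gate. Gates were compared on UMI sums per library with edgeR's quasi-likelihood test, in which 5 of the 6 members passed the filter on low counts (Reln did not) and a gene was called at an adjusted p under 0.05 and an absolute log2 fold change over 1. Of 20 pairs of gene and gate, 9 were called. Among them Pdpn in cells of no gate is only a description, since it passed the filter through that class alone. The share of all 13338 tested genes called was 14.9% for Stab2 cells, 14.4% for Gja4 cells, 9.93% for Vwf/Fmo2 cells and 7.89% for cells of no gate.

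Mmrn1 separated Stab2 cells from every other gate. Its level in Stab2 cells was 142 ± 47.4 CPM (SD, n = 10 libraries, range 106.5 to 250.5), against 32.1 ± 6.38 CPM in cells of no gate, 13.9 ± 10.0 CPM in Vwf/Fmo2 cells and 8.82 ± 4.74 CPM in Gja4 cells. The lowest Stab2 value lay above the highest value of the other 3 gates, 43.0 CPM. Against the mean of the other gates the log2 fold change was 3.36 ± 0.14 (SE) in Stab2 cells (adjusted p = 7.11e-22), -2.09 in Gja4 cells and -1.61 in Vwf/Fmo2 cells. These 3 calls held under every alternative. Prox1 stood at 4.07 ± 3.999 CPM in Stab2 cells and at 1.34 to 2.48 CPM on average in the other 3 gates, a log2 fold change of 1.02 ± 0.27 (adjusted p = 0.00133) that rested on the aged libraries, being 0.69 and 0.81 without aged library 1 or 2. It was just under 1, and thus not called, with DESeq2 (0.92), plain totals (0.94), a gate at 1 UMI (0.96) or without juvenile library 2 or PTH library 1 (0.94).

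Pdpn, Lyve1 and Ccl21a were higher in cells that met no gate. The log2 fold change of that class against the 3 gates was 3.32 ± 0.39 for Pdpn, 2.17 ± 0.38 for Lyve1 (adjusted p = 1.4e-05) and 3.28 ± 0.70 for Ccl21a (adjusted p = 0.000248). Pdpn held 18 UMIs in Stab2, 15 in Gja4 and 3 in Vwf/Fmo2 cells and passed the filter on low counts only through cells of no gate, so that its value is a description. The Ccl21a value became -0.13 when 48 cells with UMIs of 3 or more members were left out. The Lyve1 call held under every alternative in which the gene was tested, but neither Lyve1 nor Pdpn passed the filter on low counts without those 48 cells, nor did Pdpn without cells with a UMI of any of 6 mesenchymal genes or with a higher minimum of endothelial UMIs. Markers of other cells were also higher in cells of no gate, with 7 of 7 tested haematopoietic genes (median log2 fold change 2.61), 4 of 8 reticular and mesenchymal genes and 2 of 4 macrophage genes called higher. Without cells with a UMI of Ptprc, Laptm5 or Coro1a the log2 fold change was 3.48 for Pdpn and 2.29 for Lyve1. Ccl21a was also called in Gja4 cells at 2.08, where the libraries ran from 0 to 332 CPM, and became -0.15 without those 48 cells. That call was also lost with DESeq2 (0.57) and without cells with a mesenchymal UMI (1.89), juvenile library 1 (1.32), adult library 2 (1.63) or PTH library 2 (1.77). Lyve1 in Stab2 cells was called at -1.16 (adjusted p = 0.0366), which was lost without cells with a mesenchymal UMI (-0.80) and when any of 6 libraries was left out (-0.90 without juvenile 1 or PTH 2, -0.98 without alendronate 2, -1.10 without juvenile 2, -1.12 without PTH 1 and -1.16 without adult 2).

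Between ages and treatments, Ccl21a was not called in any comparison of all endothelial cells, and Lyve1, Prox1, Pdpn and Reln were highest in the aged libraries. The question of these comparisons was how age and bone-active drugs change the endothelium, each group being set against adult bone. In sums over all endothelial cells 11 of 24 pairs of member and comparison were called at an adjusted p under 0.05, 2 in juvenile, 4 in aged, 3 in PTH-treated and 2 in alendronate-treated bone. Of all 16084 genes tested, 41.2% were called in juvenile, 72.8% in aged, 25.9% in PTH-treated and 22.6% in alendronate-treated bone, so that a call is common, above all in aged bone. The 4 comparisons share the adult libraries.

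Ccl21a, the chemokine, varied widely between the 2 libraries of the juvenile, aged and PTH-treated groups. Its level was 37.8 and 6.28 CPM in juvenile, 12.8 and 18.7 in adult, 10.3 and 27.1 in aged, 8.84 and 38.8 in PTH-treated and 31.6 and 35.5 CPM in alendronate-treated bone. Set against adult bone the groups overlapped except with alendronate, where both treated libraries were above both adult ones but the log2 fold change of 1.11 ± 0.61 did not pass (adjusted p = 0.221). In 9 of the 10 libraries between 35.4% and 84.3% of all Ccl21a UMIs came from 1 cell, and in juvenile library 2 the share was 91.0%.

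Lyve1, the hyaluronan receptor gene, was called higher in aged, PTH-treated and alendronate-treated bone. It stood at 2.13 and 0.848 CPM in juvenile, 0.578 and 0.983 in adult, 4.58 and 8.27 in aged, 2.09 and 4.28 in PTH-treated and 3.60 and 1.47 CPM in alendronate-treated bone. All 6 aged and treated libraries were above both adult libraries. The log2 fold change against adult was 2.71 ± 0.54 in aged bone (adjusted p = 0.00049), 2.11 ± 0.56 with PTH (0.0135) and 1.72 ± 0.57 with alendronate (0.047). The aged call held under every alternative, at 2.23 to 3.61. Without the 48 cells with 3 or more members, Lyve1 would not have passed the filter on low counts but for the aged libraries. Keeping the call in that alternative is no support. The PTH call was lost without the 48 cells (1.62), adult library 1 (1.77) or PTH library 2 (1.37), and the alendronate call was kept in only 11 of 19 alternatives. Among those that lost it were no filter on low counts (1.72, adjusted p = 0.087), cells without a UMI of Ptprc, Laptm5 or Coro1a (1.63), cells without a mesenchymal UMI (1.61), leaving out the 48 cells (1.09), and leaving out adult library 1 (1.38), adult library 2 (2.13) or alendronate library 1 (0.92).

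Prox1, the lymphatic transcription factor gene, was highest in aged bone. It stood at 7.82 and 6.81 CPM in aged bone, while the 8 other libraries lay between 1.19 and 2.88 CPM. Against adult (1.69 and 1.19 CPM) the log2 fold change was 2.00 ± 0.22 in aged bone (adjusted p = 2.4e-06), and it stayed between 1.75 and 2.36 and called under every alternative. Juvenile bone, at 2.51 and 2.88 CPM, was called at 0.95 ± 0.24 (adjusted p = 0.00697), a call lost without juvenile library 2 (0.85) or adult library 2 (0.73). The PTH and alendronate libraries, at 1.52 to 1.93 CPM, were not called.

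Pdpn, the podoplanin gene, was called lower in juvenile and higher in aged and PTH-treated bone. The juvenile libraries held 1 UMI each (0.0546 and 0.0566 CPM), the adult ones stood at 0.675 and 0.414, the aged at 3.91 and 4.76, the PTH-treated at 3.14 and 1.60 and the alendronate-treated at 0.614 and 0.847 CPM. The log2 fold change was -3.11 ± 0.82 in juvenile (adjusted p = 0.00816), 2.64 ± 0.37 in aged (2.38e-05) and 1.92 ± 0.40 in PTH-treated bone (0.00284). Markers of mesenchymal stroma were also higher in the aged and PTH-treated libraries. Of the 79 Pdpn holders with fewer than 3 members, 81.0% had a UMI of at least 1 of 6 mesenchymal genes (3.12% of all cells had one), and a list of 9 reticular and mesenchymal genes summed to 9869 CPM in these holders against 82.2 CPM in all cells. That list summed to 98.5 to 145 CPM in aged and 139 to 188 CPM in PTH-treated libraries, against 37.3 and 39.9 CPM in adult libraries and 28.2 and 29.4 CPM in juvenile ones, and to 64.0 and 95.9 CPM with alendronate, where Pdpn was not called. When cells with a mesenchymal UMI were left out, the log2 fold change was 0.38 in aged (adjusted p = 0.64), 1.20 in PTH-treated (0.17) and -2.57 in juvenile bone (0.072). The juvenile call was also lost without juvenile library 1 (-3.09) or adult library 1 (-2.71).

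Reln, encoding reelin, stood at 2.36 and 3.07 CPM in aged bone and between 0.259 and 0.856 CPM in the 8 other libraries, a log2 fold change of 2.61 ± 0.42 in aged against adult bone (adjusted p = 7.9e-05). Without the 48 cells with 3 or more members it was 0.46 (adjusted p = 0.64). Reln was not called in the other 3 comparisons.

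Mmrn1, encoding multimerin 1, was lower under both drugs. It stood at 87.8 and 91.1 CPM in juvenile, 90.5 and 87.6 in adult, 117 and 99.9 in aged, 51.3 and 55.2 in PTH-treated and 69.8 and 68.9 CPM in alendronate-treated bone. It was called lower with PTH, by a log2 fold change of -0.78 ± 0.07 (adjusted p = 2.15e-06), and with alendronate, by -0.35 ± 0.06 (0.0018), under every alternative. The share of Stab2 cells among all cells was lower too, from 54.6% ± 0.361 (SD, n = 2 libraries) in adult to 33.3% ± 4.16 in PTH-treated and 41.7% ± 0.65 in alendronate-treated bone. It was 23.5% ± 0.279 in aged and 68.4% ± 0.135 in juvenile bone. These shares leave out cells that met more than 1 gate. Such cells made up 9.64% of aged and 1.71% of adult cells. In aged bone they stood at 246 CPM of Mmrn1 and held 870 of its 2955 UMIs. Stab2 cells were also deeper in aged bone (medians of 6994 and 6408 UMIs) than in adult bone (3660 and 3489). The part of depth in the Stab2 share was not tested. Within Stab2 cells Mmrn1 was not called under either drug, with log2 fold changes of -0.22 (adjusted p = 0.0529) and -0.05 (0.664). The part of the Stab2 share in the level over all cells was not tested. In aged against adult bone the log2 fold change over all cells was -0.05 (adjusted p = 0.527) although both aged libraries had higher CPM. With plain library totals in place of TMM factors, under which the median of all genes in this comparison was 0.36, the log2 fold change of Mmrn1 was 0.31 (adjusted p = 0.000774), and without aged library 2 it was 0.07 with TMM factors.

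**Figure D2:**
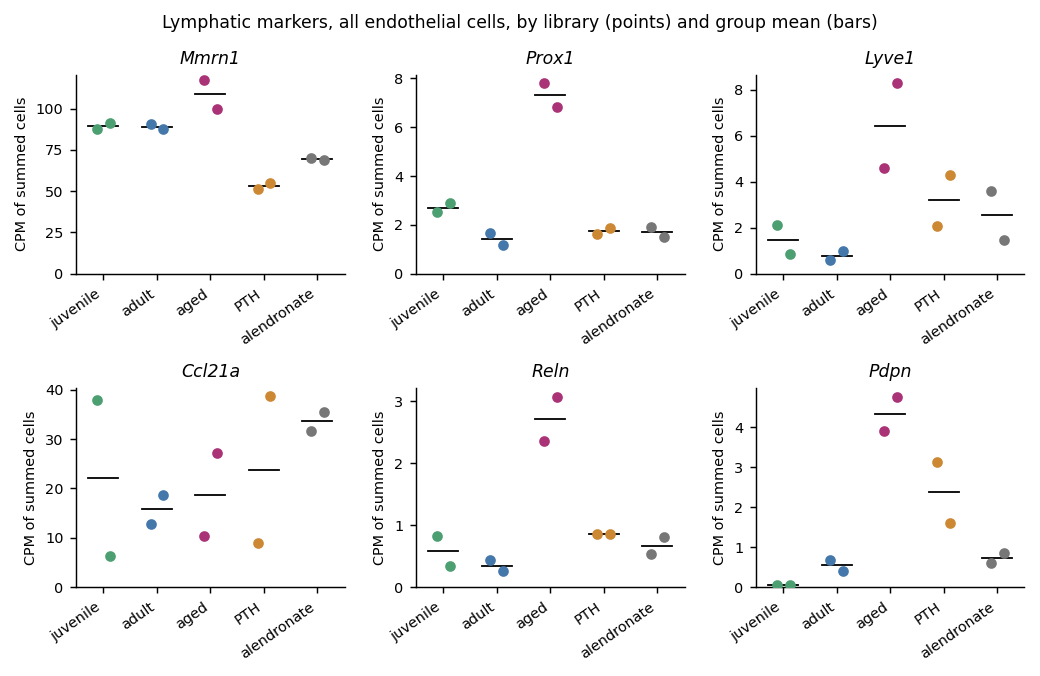
Level of each of the 6 members in CPM in all endothelial cells; each point is 1 library, coloured by group, and the bar is the mean of the 2 libraries. Prox1, Lyve1 and Reln are highest in both aged libraries, Pdpn is lowest in both juvenile libraries, Mmrn1 is lowest in both PTH libraries at 51.3 and 55.2 CPM, and Ccl21a spreads from 6.28 to 38.8 CPM.

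Sinusoidal Stab2 cells were then examined on their own, where Lyve1, Prox1 and Mmrn1 were all called higher in aged bone. Of the 6 members 4 passed the filter there, and 6 of 16 pairs were called. Among all 14407 genes tested 36% were called in juvenile, 65.9% in aged, 10.5% in PTH-treated and 16.3% in alendronate-treated bone. Mmrn1 stood at 250.5 and 207 CPM in aged Stab2 cells, at 134.4 and 128.2 in adult, and between 106.5 and 125.0 CPM in the 6 other libraries. The log2 fold change in aged against adult was 0.45 ± 0.07 (adjusted p = 8.91e-06), and it ranged from 0.29 to 0.83 over the alternatives, all called.

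Prox1 in aged Stab2 cells stood at 12.4 and 10.6 CPM, against 1.75 and 1.35 CPM in adult Stab2 cells and at most 3.62 CPM in the other libraries. The log2 fold change was 2.52 ± 0.31 (adjusted p = 8.03e-07). After thinning to 1000 UMIs, 1.47% and 1.64% of aged Stab2 cells held a Prox1 UMI, against 0.268% and 0.138% of adult ones. Lyve1 stood at 3.05 and 5.82 CPM in aged against 0.166 and 0.270 CPM in adult Stab2 cells, with a log2 fold change of 3.91 ± 0.91 (adjusted p = 0.000895). These aged values rested on 4 cells in each library, with 12 and 22 UMIs, of which 1 cell held 41.7% and 50%. Both aged calls held under every alternative. Without the 48 cells with 3 or more members, however, Lyve1 passed the filter on low counts only through the aged libraries. Keeping its call there is no support.

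The remaining calls in Stab2 cells were each kept in 17 of 21 alternatives, and none held with DESeq2. Ccl21a was called higher with alendronate (log2 fold change 4.46, adjusted p = 0.00392), at 46.2 CPM in library 1 against 1.32 CPM in library 2 and 0.416 and 1.80 CPM in adult bone. In library 1 a single cell held 467 of the 490 UMIs (95.3%). The log2 fold change was 0.30 without library 1, 0.65 without doublet-scored cells, 1.02 without the 48 cells and 4.47 with DESeq2 (adjusted p = 0.0621). Prox1 in juvenile Stab2 cells was called at 0.95 (adjusted p = 0.029), lost with DESeq2 (0.96, adjusted p = 0.126) and without juvenile library 2 (0.59), adult library 1 (1.15) or adult library 2 (0.79). Mmrn1 in juvenile Stab2 cells was called at -0.21 (adjusted p = 0.0151), lost with DESeq2 (-0.21, adjusted p = 0.058), with a gate at 1 UMI (-0.18) and without juvenile library 1 (-0.15) or adult library 1 (-0.17).

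In cells of no gate 7 of 24 pairs were called, 5 of them in aged bone, where 65.1% of all 13560 genes were called (24.1% in juvenile, 12.3% in PTH-treated and 8.06% in alendronate-treated bone). Lyve1 stood at 11.9 and 20.7 CPM in aged against 1.72 and 2.29 CPM in adult cells of this class (log2 fold change 2.78 ± 0.42, adjusted p = 6.84e-05). Pdpn, at 12.9 and 15.2 against 1.55 and 1.06 CPM, had a log2 fold change of 3.17, Reln, at 8.27 and 9.16 against 0.862 and 0.528 CPM, one of 3.36, and Prox1, at 6.72 and 6.27 against 1.03 and 0.880 CPM, one of 2.49. The Prox1 value is a description, since Prox1 passed the filter on low counts only through the aged libraries. Outside them it reached at most 3.00 CPM (juvenile library 1). The calls of Lyve1, Pdpn and Reln held under every alternative in which the gene was tested. However, Pdpn did not pass the filter on low counts without cells with a mesenchymal UMI, nor did Lyve1 and Reln without the 48 cells with 3 or more members. Mmrn1 went the other way, at 30.8 and 34.0 against 36.9 and 38.2 CPM (log2 fold change -0.45 ± 0.15, adjusted p = 0.0202), which was lost with DESeq2 (-0.39), plain totals (-0.19) and without adult library 2 (-0.44) or aged library 1 (-0.39) and became 0.15 when 1 UMI sufficed for a gate. Pdpn was called with PTH (1.67, adjusted p = 0.0397) and kept in 13 of 19 alternatives, being lost with DESeq2 (1.78), with a higher minimum of endothelial UMIs (1.48), with a gate at 1 UMI (1.11) and without adult library 1 (1.97), adult library 2 (1.42) or PTH library 1 (1.25). Lyve1 was called with alendronate (1.61, adjusted p = 0.0462) and kept in 11 of 19. Among the alternatives that lost it were DESeq2 (1.65), a gate at 1 UMI (0.29), cells without a UMI of Ptprc, Laptm5 or Coro1a (adjusted p = 0.0553), cells without a mesenchymal UMI (1.47), and leaving out adult library 1 (1.42), adult library 2 (1.83) or alendronate library 1 (1.06).

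**Figure D3:**
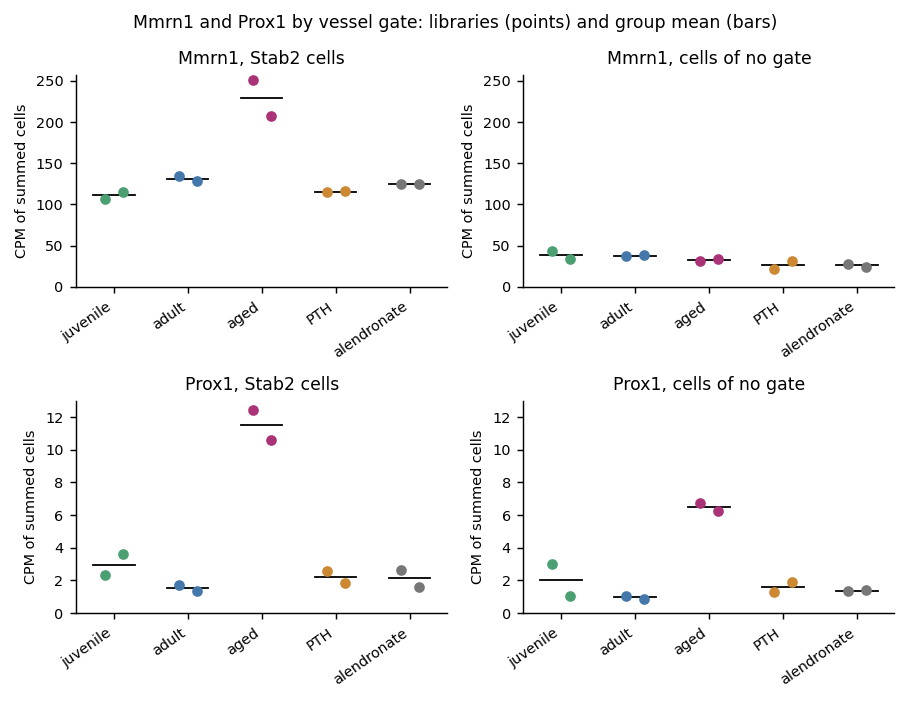
Level of Mmrn1 (upper row) and Prox1 (lower row) in CPM in Stab2 cells (left) and cells of no gate (right), on 1 scale per gene; each point is 1 library and the bar is the mean of the 2 libraries of a group. The aged libraries are the highest for Prox1 in both classes and for Mmrn1 in Stab2 cells, at 250.5 and 207 CPM, while Mmrn1 in cells of no gate lies between 22.1 and 43.0 CPM in all libraries.

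Whether the effect of a group differed between Stab2 cells and cells of no gate was tested as an interaction, and 1 of 24 pairs was called, namely Mmrn1 in aged against adult bone. Its effect was 0.91 ± 0.17 higher in Stab2 cells on the log2 scale (adjusted p = 0.00144). Of all 14510 genes, 11.7% were called in that contrast, 4.93% in juvenile, 2.21% in PTH-treated and 1.72% in alendronate-treated bone. For Prox1, which was higher in aged bone in both classes (in cells of no gate as a description), the difference in effect was 0.04 ± 0.86 (adjusted p = 0.991). With a gate at 1 UMI the Mmrn1 difference was 0.22 (adjusted p = 0.66).

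Co-detection showed a small set of cells in which the rare genes occurred together. The number of cells with UMIs of both genes of a pair was set beside the number expected if the genes were independent within each library and each of 10 classes of depth. Lyve1 and Reln shared 24 cells, 92.4 times the expected number, Pdpn and Reln 21 cells (77.4 times), Lyve1 and Pdpn 31 cells (70.04 times), Ccl21a and Reln 24 cells (52.8 times), Ccl21a and Lyve1 33 cells (40.8 times) and Ccl21a and Pdpn 26 cells (31.7 times). Pairs with Prox1 came to 9.11 times with Ccl21a (19 cells), 10.4 with Pdpn (19), 16.6 with Lyve1 (24) and 17.0 with Reln (15). Pairs with Mmrn1 came to 1.46 to 2.27 times, but a gene found in 21.3% of cells cannot reach the ratios of the rarer genes, and 47 of the 48 cells described next held Mmrn1. All 33 cells with both Ccl21a and Lyve1 also held a UMI of at least 1 other member.

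**Figure D4:**
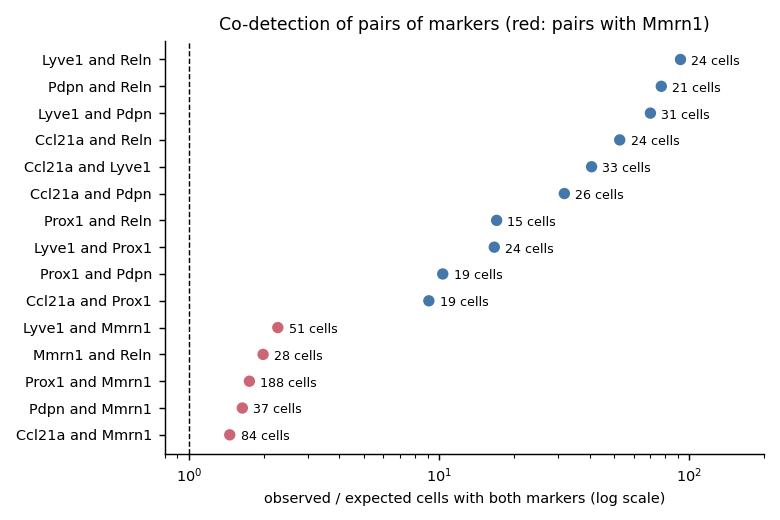
Cells with a UMI of both members for each of the 15 pairs, as the ratio to the number expected within library and class of depth (log axis). The 6 pairs among Ccl21a, Lyve1, Pdpn and Reln reach 31.7 to 92.4, the 4 pairs of these genes with Prox1 reach 9.11 to 17.0 and the 5 pairs with Mmrn1 lie at 1.46 to 2.27, where the frequency of Mmrn1 (21.3% of cells) caps the ratio.

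In all, 48 cells (0.107%, interval 0.0785 to 0.141%) held UMIs of 3 or more members, 11 with 3, 16 with 4, 11 with 5 and 10 with all 6. They were found in every library, 3 and 1 in juvenile, 3 and 3 in adult, 6 and 4 in aged, 4 and 13 in PTH-treated and 6 and 5 in alendronate-treated bone. As a share of cells they made up 0.0485% ± 0.032 (SD, n = 2) in juvenile, 0.0544% ± 0.00074 in adult, 0.214% ± 0.066 in aged, 0.179% ± 0.0081 in PTH-treated and 0.0948% ± 0.011 in alendronate-treated bone. Both aged and both PTH libraries were above the other 6, and these shares were not tested. These 48 cells held 94.1% of all Ccl21a UMIs, 80.9% of Lyve1, 69.2% of Reln, 30.04% of Pdpn, 12.4% of Prox1 and 2.92% of Mmrn1.

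Most of the 48 cells lay outside the vessel gates, with 33 in no gate, 8 in the Gja4 gate, 6 in the Stab2 gate, 1 in more than 1 gate and 0 in the Vwf/Fmo2 gate. Their depth was close to that of the other cells (median of 3987.5 against 3573.5 UMIs), 5 were scored as doublets (10.4% against 4.30%), and 47 of 48 had no UMI of Ptprc, Laptm5 or Coro1a. Among macrophage markers 7 of 10 genes were at 0, including the defining genes Emr1 (F4/80), Csf1r, C1qa and Cd163, and the list summed to 175 CPM, of which Mrc1, which sinusoidal endothelium also expresses, made up 167 CPM. Over all cells of a library the macrophage list summed to 229 to 444 CPM. The haematopoietic list summed to 17.1 CPM (451 CPM in all cells) and the sinusoidal list to 1298 CPM (3442 in all cells). The reticular and mesenchymal list was higher than in all cells, at 141 against 82.2 CPM. Pdgfra and Pdgfrb were at 0, so that this sum came from its other genes. A mesenchymal UMI was found in 7 of the 48 cells (14.6%), against 3.12% of all cells.

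The 48 cells differed in their level of Ccl21a. Since each had to hold 3 members, a cell without Ccl21a had to hold 3 of the other 5, and the counts of members that follow are in part fixed by that choice. In 27 cells from all 10 libraries Ccl21a reached 10 or more UMIs, with a median of 160 UMIs and 34234 CPM in their sum. All 27 held Lyve1, 26 Mmrn1, 20 Reln, 20 Pdpn and 13 Prox1. Another 11 cells held 1 to 9 UMIs of Ccl21a, all with Mmrn1, 6 with Lyve1 and 4 with Prox1. The last 10 cells, from 6 libraries, had no Ccl21a UMI, but 10 held Mmrn1, 9 Lyve1, 9 Prox1 and 7 Pdpn, and 8 held Nts, the neurotensin gene, at 900 CPM (365 CPM in the 27 cells), of whose 66 UMIs 1 cell held 35. Of 235 cells with exactly 2 members 170 were Stab2 cells, and 162 of the 235 held Prox1 and Mmrn1.

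**Figure D5:**
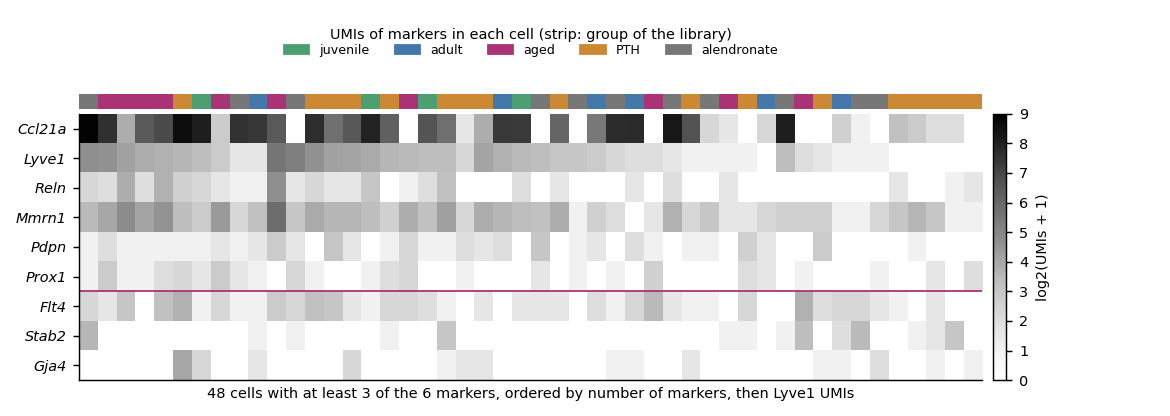
UMIs of the 6 members and of Flt4, Stab2 and Gja4 (rows, grey scale as log2(UMIs + 1)) in each of the 48 cells with 3 or more members (columns), ordered by the number of members and then by Lyve1 UMIs, with the group of the library as a coloured strip. Ccl21a is dark in most columns, at 10 or more UMIs in 27 cells that all hold Lyve1, and blank in 10, while Stab2 and Gja4 are blank in most.

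Genes that took no part in the choice of cells were then compared between the 48 cells and all others. Only libraries with at least 5 such cells could be used, which were aged library 1, PTH library 2 and both alendronate libraries, with 30 of the 48 cells and 158148 UMIs. Of 12877 genes tested (members left out), 841 (6.53%) were called at an adjusted p under 0.05 and an absolute log2 fold change over 1, 260 higher (2.02%) and 581 lower (4.51%). The count was 413 with DESeq2, 279 without cells with a mesenchymal UMI, 531 without PTH library 2 and 560 without alendronate library 1. It was 2643 when cells were chosen by 3 of 5 members with Mmrn1 left aside and no minimum of cells per library. Dropping that minimum alone also raised the count. The split depended on the scaling: with plain totals 367 of 596 calls were higher, and the median of all genes was -0.62 with TMM factors and -0.18 with plain totals.

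Of 20 further lymphatic and venous genes, all tested, 10 were higher, 3 lower and 7 not called, with a median log2 fold change of 1.20 against -0.62 for all genes. The list was chosen with earlier results of these data known, so that these counts are a description and not independent support. Thy1, at 0.376 to 1.29 CPM in the other cells of the tested libraries, passed the filter on low counts only through the chosen cells. The same may hold for other genes named in this paragraph that are low in the other cells. Among the 10 higher genes were Nts (6.82 ± 0.32), Thy1 (8.37), the phospholemman-family gene Fxyd6 (5.01), Fgl2 (4.42) and the semaphorin gene Sema3d (6.68). The others were the transcription factor genes Tbx1 (6.15), Maf (1.22) and Meox1 (1.33), the tight junction gene Cldn11 (4.28) and Klhl4 (2.35). Sox18 (-1.62), Gata2 (-1.84) and Clca1 (-1.27) were lower, where Clca1 is the older symbol of Clca3a1. Flt4, encoding the receptor for the lymphatic growth factor VEGF-C, had a UMI in 79.2% of the 48 cells and in 54.6% of the others and was not called. Of 17 ligand and receptor genes, 10 were tested, and the reelin receptor gene Vldlr was higher (4.38), Vegfc (-4.28) and Mmrn2 (-1.95) lower. The reelin adaptor gene Dab1 and the CCL21 receptor gene Ccr7 had 0 UMIs in the 48 cells.

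The largest differences by the naming rule were in genes with few UMIs elsewhere. Thy1, a cell surface glycoprotein gene, was found in 64.6% of the 48 cells and 0.238% of the others, Slc45a3 in 54.2% against 0.209%, Nts in 47.9% against 0.877%, Sema3d in 47.9% against 0.422%, Il7, encoding the lymphocyte growth factor interleukin 7, in 39.6% against 0.295%, Gm14964 in 37.5% against 0.102%, Gap43 in 35.4% against 0.562%, Sh3gl3 in 31.2% against 0.0511% and Apba2 in 31.2% against 0.195%. Serinc2 (8 cells), Anxa8 (6 cells) and Npy (4 cells) rested on fewer cells. Apart from Nts (4.80 CPM) and Sema3d (1.60 CPM), these 12 genes stood at only 0.0446 to 0.889 CPM on average in the other cells. Genes that low passed the filter on low counts only through the chosen cells, where they are high, so that their differences are a description. The same filter preceded the fits with plain totals and with DESeq2, so that the calls of all 12 there add no support. Npy, Anxa8 and Serinc2 were not among the genes tested without cells with a mesenchymal UMI.

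The 12 genes named as lower had 0 UMIs in the 30 cells, where 3 UMIs would be 19.0 CPM, a limit over all 30 cells and not for a single library. Their levels in the other cells of the same 4 libraries are given without a fold. Mecom, a transcription factor gene of arterial and stem cells, stood at 63.3 to 178 CPM in the other cells and was found in 0 of the 48 cells but in 15.8% of the others. Ctsc stood at 50.3 to 79.7 CPM and Pcdh17, a protocadherin gene, at 42.4 to 164 CPM, but Pcdh17 was found in 3 of the 48 cells (6.25%, against 18.8% of the others), all of them in libraries that were not tested. Gm16340 stood at 47.3 to 129 CPM and Ly6c2 at 28.5 to 129 CPM. Most of the other 7 genes varied widely between libraries. The B cell gene Ighm stood at 345 CPM in alendronate library 2 and 3.32 to 25.5 CPM in the other 3 libraries, the myeloid gene Lyz2 at 496 CPM in aged library 1 and 18.7 to 52.7 CPM elsewhere, Gm10800 at 397 CPM in aged library 1 and 2.29 to 10.4 CPM elsewhere, and Igj at 217 and 103 CPM with alendronate and under 1 CPM elsewhere, while Ctsg, H2-Aa and Igfbp2 stood at 8.79, 10.7 and 5.86 CPM in their lowest library. Igj, Lyz2, Ighm, Gm10800 and Ctsg were found in only 1.13 to 2.83% of the other cells, so that 0 UMIs in 30 cells says little about them. Igj, Ighm and Lyz2 were each found in 1 of the 48 cells (2.08%, against 1.13%, 2.31% and 2.50% of the others). So were Ctsc, H2-Aa and Igfbp2 (against 21.7%, 6.75% and 22.6%), and Gm16340 was found in 2 (4.17%, against 17.5%). Of the 12 genes named as lower, 6 were also called with DESeq2, among them Mecom and Pcdh17. All 12 passed the filter on low counts only through the other cells, where they are high. The calls with DESeq2 therefore add no support.

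The further lymphatic genes were also counted between groups, beside the share of all genes called. Over all endothelial cells 12 of the 20 genes were higher and 4 lower in aged bone, where 72.8% of all genes were called (median log2 fold change 0.36, 0.00 for all genes). In juvenile bone 11 were higher and 5 lower (0.28, 41.2% of all genes called), with PTH 8 and 5 (0.13, 25.9%) and with alendronate 7 and 3 (0.11, 22.6%). Between gates the 20 genes divided, 5 higher and 8 lower in Stab2 cells, where 14.9% of all genes were called. Flt4 (2.50), Maf (3.15), Nr2f2 (2.06), Clca1 (3.81) and Itga9 (1.13) were the 5 higher in Stab2 cells, while Fgl2 (-3.21), Fxyd6 (-3.97), Thy1 (-3.65), Tbx1 (-2.73), Nts (-2.39), Rassf9 (-2.35), Meox1 (-1.91) and Cldn11 (-1.73) were lower there.

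The genes with the pattern most like Mmrn1 over 50 sums of gate and library, among 10353 genes, included Abcc9 (Pearson's r = 0.94, Spearman's rho = 0.96) and Lipg (0.93 and 0.94), on log2(CPM + 1). The sums share libraries and gates, and the values are a description. For the rarer members the likeness was weaker, with r = 0.71 for Prox1 and Copa, 0.69 for Pdpn and Gsn, 0.64 for Ccl21a and Cd48, 0.64 for Lyve1 and Pold3 and 0.58 for Reln and Hist1h2ae.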

How the data were processed

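The deposited files are UMI count tables per gene and cell, 1 for each library. The counts were made by the authors with UMI-tools 1.1.2, STAR 2.7.10a on mm10 and featureCounts 2.0.3, without normalization. The annotation release and strand setting are not given in the sources used here. Cells were filtered as stated in the report. Symbols starting with U had UMIs only in the aged libraries (1.52 to 1.53% of their UMIs) and were left out of the sums that were tested. They are still part of the library totals, the cell filters, the thinning and the totals behind the CPM of the members in aged libraries. Of 26504 symbols, 93.1% matched GENCODE M21, and list genes with an older symbol in the tables were taken under it.

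UMIs were summed per library, or per vessel gate and library with at least 20 cells, and tested with edgeR 4.0.16 in R 4.3.3 (TMM factors, filterByExpr, quasi-likelihood test, Benjamini-Hochberg adjustment over all genes tested). Groups were compared in 1 fit of all 10 libraries, and gates, interactions and the 48 cells with the library as a block. Since libraries came from pooled animals, p-values measure the spread between libraries. CPM values use plain totals. Doublets were scored from simulated pairs within each library, at 0.8% per 1000 cells, and kept unless stated. Python 3.11.15, numpy 2.4.6, pandas 2.3.3, scipy 1.17.1 and scikit-learn 1.9.0 were used, and the fits were tested on simulated counts. DESeq2 1.42.0 was an alternative.

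The named genes are the members, the called genes of the lists and, for the 48 cells, the 12 genes with the largest log2 fold change in each direction among those called with at least 20 CPM and 1 direction in every library, and the 3 genes most like a member, of which some are not reported here. Members and lists were chosen with earlier results of these data known.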

Additional observations from a re-analysis of the deposited data

Results flagged for a closer look

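The effect of age on Mmrn1 differed between Stab2 cells and cells of no gate. In Stab2 cells Mmrn1 stood at 250.5 and 207 CPM in aged and 134.4 and 128.2 CPM in adult libraries, and in cells of no gate at 30.8 and 34.0 CPM in aged and 36.9 and 38.2 CPM in adult libraries. The log2 fold change of aged against adult bone was 0.91 ± 0.17 (SE) higher in Stab2 cells than in cells of no gate (edgeR quasi-likelihood test with an interaction term, adjusted p = 0.00144, 2 libraries a group), and 11.7% of all genes tested were called in that contrast. The median of all genes in it was -0.01 with TMM factors and 0.08 with plain totals. With a gate at 1 UMI the difference was 0.22 (adjusted p = 0.66). The part of gate composition in this difference was not tested.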

How the results depend on the processing

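Of 34 called pairs of member and comparison, 16 kept direction and call under every alternative in which the gene was tested. These 16 include Pdpn in cells of no gate against the gates and Prox1 in aged against adult cells of no gate. Both passed the filter on low counts only where they are high, so that keeping the call is no support for them. For Lyve1 in aged against adult bone, over all cells and in Stab2 cells, keeping the call without the 48 cells is no support either. Of 340 values with 1 library left out 304 kept the call and 36 lost it, and of 317 values under other alternatives 281 kept it, 33 lost it and 3 were turned in direction. These 3 were Mmrn1 in aged against adult cells of no gate with a gate at 1 UMI (0.15) and Ccl21a without the 48 cells with 3 or more members, in Gja4 cells (-0.15) and in cells of no gate (-0.13). Mmrn1 in aged against adult bone over all cells, not called at -0.05, was 0.31 with plain totals and ranged from -0.15 to 0.071 (without aged library 2) with 1 library left out. With plain totals 67.7% of the calls in aged against adult bone over all cells were higher, against 49.9% with TMM factors, and for PTH 63.2% against 51.5%. The mechanism behind these shifts was not tested.

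Counts of called pairs moved by over 1.5 times as follows. In Stab2 cells (6 called) there were 3 with DESeq2 and 10 without a filter on low counts. In cells of no gate (7) there were 4 with DESeq2, 16 without a filter, 4 with a gate at 1 UMI and 4 without cells with a mesenchymal UMI. Between gates (9) there were 4 without the 48 cells. For the interaction (1) there were 5 without a filter, 3 without cells with a UMI of Ptprc, Laptm5 or Coro1a, 2 without doublet-scored cells and 0 with a gate at 1 UMI. For the 48 cells (841 called genes) there were 413 with DESeq2, 279 without cells with a mesenchymal UMI, 555 with 4 of 6 members required, 2278 with no minimum of cells and 2643 with 3 of 5 members, Mmrn1 left aside and again no minimum of cells. With 1 library left out, the calls ranged from 8 to 11 over all cells, 4 to 8 in Stab2 cells, 4 to 10 in cells of no gate (4 without adult library 2), 7 to 10 between gates, 1 to 4 for the interaction (3 and 4 without alendronate library 1 or 2) and 531 to 570 for the 48 cells (531 without PTH library 2, 560 without alendronate library 1). The alternatives without the 48 cells, without cells with a mesenchymal UMI, with no minimum of cells and with 5 members were chosen after seeing the data.

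Libraries of different groups share replicate numbers, but the deviations of same-numbered libraries from their group means correlated at only -0.103 to 0.0292 over 10 pairs of groups, so that the numbers do not pair the libraries. With the replicate number as a block, 10 pairs were called over all cells, 6 in Stab2 cells, 6 in cells of no gate and 2 for the interaction. The calls lost were those of Lyve1 with alendronate over all cells (adjusted p = 0.057) and in cells of no gate (adjusted p = 0.0545).

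Depth sets the share of cells with a UMI. At 2000 UMIs per cell and without thinning the shares over all endothelial cells were 0.344 and 0.592% for Ccl21a, 0.165 and 0.217% for Lyve1, 0.467 and 0.881% for Prox1, 0.168 and 0.246% for Pdpn, 13.5 and 21.3% for Mmrn1 and 0.103 and 0.146% for Reln. Of the 3 genes most like a member by Pearson's r, 3 were also named by Spearman's rho for Mmrn1, 1 for Ccl21a, 1 for Prox1 and 0 for Lyve1, Pdpn and Reln. Co-detection ratios stayed on the same side without cells with a haematopoietic UMI or scored as doublets.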

Other observations

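UMIs of Lyve1 outside the 48 cells were found in 56 cells with a median of 5312 UMIs, of which 44 held no other member and 14 of those 44 were Stab2 cells. In the 371 further Prox1 holders the sinusoidal list summed to 4827 CPM, against 3442 CPM over all cells, and in the 9568 further Mmrn1 holders to 5883 CPM. A list of 6 megakaryocyte and platelet genes, which is of interest because megakaryocytes express Mmrn1, summed to 246 CPM in these Mmrn1 holders, 154 CPM in all endothelial cells and 2687 CPM in the haematopoietic cells. The part of these cells in the Mmrn1 level was not tested. In the 39 further Reln holders the haematopoietic list summed to 472 CPM and the reticular and mesenchymal list to 4445 CPM. In the 229 further Ccl21a holders the haematopoietic list summed to 1041 CPM, against 451 CPM over all cells.

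Of the other marker lists, the osteoblast and osteocyte genes summed to 12125 CPM in the 79 further Pdpn holders and 79.3 CPM over all cells, and to 24.8 to 272 CPM over the libraries. The arterial list ran from 408 to 1718 CPM over the libraries, the type R list from 175 to 1038 CPM, the type H list from 473 to 1303 CPM and the myofibre list from 3.22 to 7.67 CPM. The Ccl21a copies have no row in the tables and no value.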
